A study of Mus musculus with 24 samples.

Results

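The genes of bile acid synthesis and transport were examined in whole-liver RNA-Seq of mice on a high fat diet. The 10 genes were chosen by name and not by their values: Cyp7a1, Cyp8b1, Cyp27a1, Cyp7b1, Nr1h4, Nr0b2, Slc10a1, Abcb11, Baat and Slc27a5, out of 56205 genes counted. All 10 passed the filter on low counts. The C57BL/6J mice, for which no genetic change is named and which were young adults at the start by the study's methods, were kept for 20 weeks on the high fat diet, called FFD by the submitters and rich in palm oil, fructose and cholesterol, or on a control diet. There were 12 libraries per diet, numbered within a diet from replicate 1 to replicate 12, made from poly(A) RNA of whole livers with all the cell types that the organ holds. The mice were of both sexes, but no label gives the sex of a library, and nothing in the labels says that a number marks a shared litter or day.

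Bile acids are made from cholesterol in hepatocytes. In the classical route CYP7A1 takes the rate-limiting step and CYP8B1 steers the product to cholic acid, while the alternative route starts with CYP27A1 and goes on through CYP7B1. The bile acid receptor FXR, encoded by Nr1h4, induces the repressor SHP (Nr0b2) and the export pump BSEP (Abcb11) and lowers Cyp7a1. Bile acids that return from the gut enter hepatocytes from the blood through NTCP (Slc10a1), are activated by the bile acid-CoA ligase SLC27A5 and joined to taurine or glycine by BAAT, and leave into bile through BSEP.

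Promoter sequences of RefSeq, build GRCm38.p6, were found for 6 of the 10 genes. Those of Cyp8b1, Slc10a1 and Abcb11 are shown because these 3 genes mark the hydroxylation, uptake and export steps that are compared below. Each is the 250 bases before a start site, 5′ to 3′ on the gene's own strand, which is the minus strand for all 3. The windows were searched on both strands for the hexamer AGGTCA, for 2 copies of it facing each other with 1 base between (the form that FXR binds) with at most 2 mismatches, for CAAAGTCCA (a form that HNF4A binds) and for TCAAGGTCA (a form that LRH-1 binds), and on the forward strand for TATAAA. Capitals mark the matches.
Cyp8b1, chr9:121916306-121916555: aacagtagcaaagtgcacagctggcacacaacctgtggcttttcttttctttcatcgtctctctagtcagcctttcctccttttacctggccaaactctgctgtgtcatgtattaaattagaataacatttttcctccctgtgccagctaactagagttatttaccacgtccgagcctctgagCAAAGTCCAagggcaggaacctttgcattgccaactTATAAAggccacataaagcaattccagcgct
Slc10a1, first start, chr12:80968706-80968955: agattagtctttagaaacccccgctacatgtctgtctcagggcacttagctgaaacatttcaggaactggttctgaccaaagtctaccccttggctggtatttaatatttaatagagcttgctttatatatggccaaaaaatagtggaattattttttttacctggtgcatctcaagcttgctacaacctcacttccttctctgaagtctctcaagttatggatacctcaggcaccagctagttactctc
Abcb11, chr2:69342617-69342866: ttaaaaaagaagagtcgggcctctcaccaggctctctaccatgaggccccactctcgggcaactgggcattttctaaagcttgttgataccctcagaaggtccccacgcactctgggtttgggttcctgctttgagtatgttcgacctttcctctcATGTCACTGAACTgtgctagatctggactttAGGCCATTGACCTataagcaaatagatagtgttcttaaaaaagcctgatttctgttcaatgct
The Cyp8b1 window held CAAAGTCCA from -67 to -59 and TATAAA from -31 to -26 relative to the start site. The Abcb11 window held the facing pair from -94 to -82 and again from -63 to -51. The hexamer AGGTCA on its own stood in the Abcb11 window from -56 to -51, as part of the second pair. The window of the first Slc10a1 start held none of these letters, while that of a second Slc10a1 start (chr12:80968080-80968329, not printed) held AGGTCA from -87 to -82. Among 32851 promoter windows of the same length, 4607 held AGGTCA, 0.384% held CAAAGTCCA, 7.59% held TATAAA and 0.959% held the facing pair with at most 2 mismatches. A match is a description of the letters, and binding was not measured here.

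The libraries held 14468418 to 22112552 counts on genes, and each of the 10 genes had between 183 and 19808 counts in every library. The libraries fell into 2 sets of 6 per diet that the diet labels do not give: replicates 1 to 6 of both diets had 2664 to 6285 counts of Xist and 0 of Ddx3y, and replicates 7 to 12 had 0 to 3 of Xist and 448 to 1016 of Ddx3y. Xist lies on the X and Ddx3y on the Y chromosome, and the design text gives 6 mice per diet and sex. The sets thus match females and males in markers and number, though no label gives the sex of a library. They are called the Xist-high and Xist-low libraries below. Control replicate 10 and FFD replicate 9 stood apart from the others (median correlation with the other libraries 0.918 and 0.922), and both were Xist-low. Levels are given in CPM, counts scaled to a common library size after TMM normalization. The call rule followed the study's methods: a log2 fold change of more than 0.5 in size, with an adjusted p not above 0.01.

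Across all 24 libraries, 3 of the 10 genes were lower on FFD and 0 were higher. Slc10a1 fell by 1.46 on the log2 scale, Cyp7b1 by 2.21 and Slc27a5 by 0.61 (quasi-likelihood test of edgeR, Benjamini-Hochberg adjusted, adjusted p = 5.13e-05, 0.00324 and 0.00505). Among all 17913 genes tested, 4.99% were called lower and 13.2% were called higher. For the 10 genes the median log2 fold change was -0.39, against -0.032 for all genes tested. With no gene called higher, the count of members above 0 at an unadjusted p under 0.05 was also 0, and DESeq2 and limma-voom each called 0 higher. Of the 10 genes, 0 had every FFD library below every control library, a pattern that 0.402% of all genes showed.

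The diet effect was not alike in the 2 sets of libraries for 5 of these genes. Among the Xist-low libraries, 6 of the 10 genes were lower on FFD (Cyp7b1, Slc10a1, Cyp8b1, Slc27a5, Cyp27a1 and Abcb11) and 0 were higher, where 7.99% of all genes were called lower and 14.4% higher. Among the Xist-high libraries only Slc10a1 was called, again lower, where 0.882% of all genes were called lower and 2.9% higher. In a fit of the interaction between diet and set, 5 of the 10 genes had a diet effect that was lower in the Xist-low libraries (Cyp7b1, Cyp8b1, Slc10a1, Slc27a5 and Cyp27a1), as had 1.47% of all genes. For 8 of the 10 genes every Xist-low FFD library lay below every Xist-low control library in TMM-scaled CPM, against 9.66% of all genes. Within the Xist-high set this was so for 1 of the 10, Slc10a1, against 2.39% of all genes. The TMM factors were 1.12 to 1.34 in Xist-low FFD libraries and 0.679 to 0.956 in Xist-low controls. The scaling thus lowered FFD levels relative to control levels there, and the separation was not counted with library totals alone. With 0 called higher in either set, the genes above 0 at an unadjusted p under 0.05 in edgeR numbered 0 in the Xist-low and 1 in the Xist-high libraries.

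**Figure D1:**
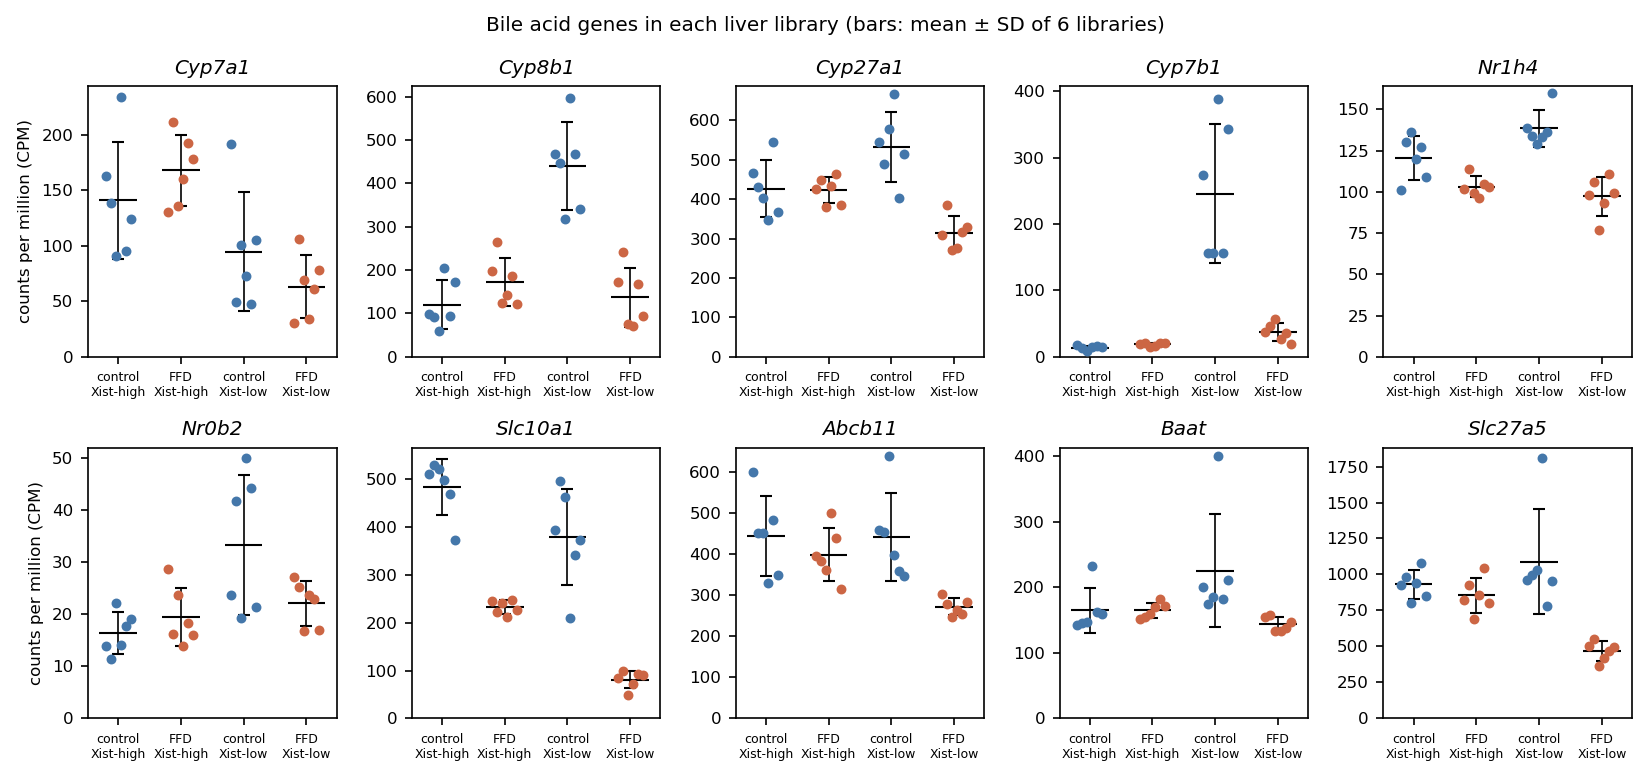
The level of each of the 10 genes in every library, in CPM on a linear axis that starts at 0, for control (blue) and FFD (orange) in the Xist-high and Xist-low libraries. Points are libraries and the black bars give the mean ± SD of 6 libraries; for Slc10a1 all 6 FFD points lie below all 6 control points in both sets, and for Cyp7b1 they do so in the Xist-low set alone.

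These folds depended on the scaling. When TMM was replaced by library totals alone, the median log2 fold change of all genes moved to 0.26, and Slc10a1 alone was called over all 24 libraries, with Cyp7b1 at -1.77 and Slc27a5 at -0.32, where 1.26% of all genes were then called lower. The median moved from -0.031 to 0.42 within the Xist-low libraries. Within the Xist-low set 4 of the 6 calls were then kept (Cyp7b1 -2.2, Slc10a1 -1.8, Cyp8b1 -1.22 and Slc27a5 -0.72), and Cyp27a1 (-0.28) and Abcb11 (-0.25) were not called, where 2.08% of all genes were called lower. Relative to the median of all genes under TMM, the Xist-low folds were -2.69 for Cyp7b1, -2.18 for Slc10a1, -1.64 for Cyp8b1, -1.17 for Slc27a5, -0.71 for Cyp27a1 and -0.66 for Abcb11.

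Markers of cell types moved with the diet too. Of 14 hepatocyte markers tested, 11 were lower on FFD, with a median log2 fold change of -0.71, which was -0.46 in the Xist-high and -0.98 in the Xist-low libraries. Their summed level spanned 66854 to 82939 CPM in Xist-low FFD libraries and 116093 to 141551 CPM in Xist-low controls. The spans were 105966 to 165162 CPM in Xist-high FFD libraries and 138369 to 180604 CPM in their controls. Most of the hepatocyte sum was Alb and Trf, with means of 45211 and 22745 CPM on FFD. On the control diet these means were 74355 and 19583 CPM. Trf and Hpx had log2 fold changes above 0 (0.22 and 0.38) that were not called. Called higher were 6 of 7 cholangiocyte markers, 8 of 12 macrophage markers and 7 of 12 stellate cell and fibroblast markers. Their summed levels spanned 31.8 to 909, 775 to 1697 and 513 to 1060 CPM on FFD and 27.3 to 132, 191 to 822 and 201 to 535 CPM on the control diet. Most of the cholangiocyte sum was Spp1, which macrophages express as well, with 26.3 to 729 CPM on FFD and 22.5 to 117 CPM on the control diet. The cholangiocyte markers Cldn4 and Cftr and the fibroblast marker Timp1 were at 0 in at least 1 control library, and none of the 3 was at 0 in every library. In whole liver, fewer hepatocytes and less of an RNA per hepatocyte cannot be told apart. The part of these markers in the results on bile acid genes was not tested.

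The genes of the classical route came first. Cyp7a1 (chr4:6265612-6275633, minus strand, build GRCm38, the same build as mm10) spanned 30.9 to 212 CPM on FFD, with a median of 118, and 47.5 to 234 CPM on the control diet (median 103). The diets overlapped, and 2 of 12 FFD libraries lay below the lowest control. The log2 fold change was -0.026 with a standard error of 0.3 (quasi-likelihood test of edgeR, Benjamini-Hochberg adjusted, adjusted p = 0.954), and its 95% interval ran from -0.61 to 0.56. Its values in the sets were 0.26 in the Xist-high and -0.57 in the Xist-low libraries, and neither they nor their difference of -0.84 passed the test (adjusted p = 0.417, 0.227 and 0.247).

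Cyp8b1, a gene with 1 exon (chr9:121914356-121916305, minus strand), was lower on FFD among the Xist-low libraries. There it spanned 317 to 598 CPM on the control diet (median 458), and 70.8 to 242 CPM on FFD, with a median of 132. No FFD library reached the lowest control, and the FFD mean was 31.2% of the control mean. The fall was 1.67 on the log2 scale with a standard error of 0.29 (edgeR with Benjamini-Hochberg adjustment, adjusted p = 0.000433). For the Xist-high libraries the control diet gave 58.9 to 205 CPM, with a median of 96.7, and FFD gave 121 to 266 CPM, with a median of 165. These overlapped, and the log2 fold change of 0.54 did not pass the test (adjusted p = 0.204). The difference between the sets did, at -2.21 with a standard error of 0.42 (adjusted p = 0.00154). On FFD both sets thus held levels that overlapped (70.8 to 242 and 121 to 266 CPM), while the control levels of the sets did not. Over all 24 libraries the log2 fold change was -0.85 and was not called (adjusted p = 0.0421).

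In the alternative route, Cyp27a1 (chr1:74713574-74737892, plus strand), the mitochondrial sterol hydroxylase, had a smaller fold than Cyp7b1. Its Xist-low range was 403 to 667 CPM on the control diet (median 529), and 271 to 386 CPM on FFD, with a median of 312. The ranges did not meet, and the fall was 0.75 on the log2 scale with a standard error of 0.13 (edgeR with Benjamini-Hochberg adjustment, adjusted p = 0.000526). In the Xist-high libraries the ranges of 346 to 544 and 380 to 464 CPM lay over each other, with a log2 fold change of -0.0044 (95% interval -0.23 to 0.22). The difference between the sets was -0.75 (adjusted p = 0.00659), and with library totals alone it was -0.39 and was not called (adjusted p = 0.0632). Over all libraries the log2 fold change of -0.38 was not called.

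Cyp7b1, the oxysterol hydroxylase (chr3:18071950-18243338, minus strand), showed the widest gap between the sets. In Xist-low controls it spanned 156 to 389 CPM, with a median of 215, and in Xist-low FFD libraries 19.1 to 56.3 CPM, with a median of 36.7. The highest FFD library was far under the lowest control, and the FFD mean was 15.1% of the control mean. The fall was 2.72 on the log2 scale with a standard error of 0.31 (edgeR with Benjamini-Hochberg adjustment, adjusted p = 1.48e-05). In Xist-high libraries the control level was low, at 8.8 to 17.5 CPM, and FFD gave 15.5 to 21.4 CPM. Here 4 of 6 FFD libraries lay above every control, and the log2 fold change of 0.45 did not pass the threshold (adjusted p = 0.0442). The difference between the sets was -3.18 with a standard error of 0.35 (adjusted p = 5.26e-06). The fall over all 24 libraries rested on the Xist-low set: with the set as a covariate it was -1.18 and was not called (adjusted p = 0.0197), nor was it by limma-voom (-1.13, adjusted p = 0.139).

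The receptor gene Nr1h4 (chr10:89454234-89533585, minus strand) spanned 76.8 to 114 CPM on FFD, with a median of 101, and 101 to 160 CPM on the control diet (median 132). All 12 FFD libraries lay below the control median, and 6 lay below every control. The log2 fold change was -0.37 with a standard error of 0.072 (edgeR with Benjamini-Hochberg adjustment, adjusted p = 0.000256), so that it passed the p threshold and not the fold threshold. The values were -0.21 in the Xist-high and -0.49 in the Xist-low libraries, and their difference of -0.29 did not pass the test (adjusted p = 0.174). With library totals alone that difference was 0.054. The log2 fold change of Nr1h4 was then -0.077 over all libraries and -0.052 in the Xist-low libraries. Neither passed the p threshold (edgeR with Benjamini-Hochberg adjustment, adjusted p = 0.397 and 0.733), so the fall depended on the scaling. With TMM and without control replicate 10, the Xist-low fall was 0.5 and was called (adjusted p = 0.000606).

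Nr0b2, the repressor that FXR induces (chr4:133553376-133556536, plus strand), had the lowest mean level per length of the 10 genes over all controls. Control levels per kb of exon ran up to 28.2 CPM for Cyp7a1, the next above it, and to 414 CPM for Slc27a5, the highest. In Xist-high controls alone Cyp7b1 was lower than Nr0b2 (6.46 against 14.5 CPM per kb). In Xist-low controls alone Cyp7a1 was lower than Nr0b2 (22.7 against 29.5 CPM per kb). Nr0b2 spanned 13.9 to 28.6 CPM on FFD and 11.4 to 50.1 CPM on the control diet. The 4 highest control values were Xist-low, where controls spanned 19.2 to 50.1 CPM. The log2 fold change was -0.25 over all libraries, 0.26 in the Xist-high and -0.57 in the Xist-low libraries, and none was called (adjusted p = 0.355, 0.391 and 0.0681). The repressor gene was also set against its target gene Cyp7a1 between libraries of a diet. After subtraction of the set means, Pearson's r of their log2(CPM + 1) was -0.72 and Spearman's rho -0.73 over the 12 control libraries (permutation p = 0.0245 and 0.0303, adjusted over 12 tests p = 0.182 for both). With the 2 libraries at the greatest distance from the Nr0b2 median left out, r was -0.69 (permutation p = 0.068). On FFD r was -0.45 and rho -0.48 (permutation p = 0.116 and 0.106, adjusted p = 0.278 for both), and neither diet's relation passed after adjustment. Without subtraction of the set means, r in the controls was -0.79 and rho -0.69 (permutation adjusted p = 0.0134 and 0.0463), values that include the difference between the sets.

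Among the transporters, Slc10a1, the sodium-driven uptake carrier (chr12:80953183-80968705, minus strand), was the only gene of the 10 that was called lower in both sets. Among the Xist-high libraries it spanned 372 to 529 CPM on the control diet (median 504), and 212 to 248 CPM on FFD, with a median of 235. In the Xist-low libraries it spanned 210 to 496 CPM on the control diet (median 383), and 49.6 to 98.0 CPM on FFD, with a median of 87.2. Within each set the diets did not overlap, and the FFD mean was 48.2% of the control mean in the Xist-high and 21.4% in the Xist-low libraries. Slc10a1 fell by 1.04 and 2.21 on the log2 scale, with standard errors of 0.099 and 0.21 (edgeR with Benjamini-Hochberg adjustment, adjusted p = 2.9e-05 and 3.58e-06). The fall was the larger in the Xist-low libraries, with a difference of -1.17 (adjusted p = 0.00181), but with library totals alone that difference was -0.87 and was not called (adjusted p = 0.017). Over all 24 libraries the call was kept when any 1 library was left out, where the log2 fold change ran from -1.54 to -1.36.

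Abcb11, the export pump of the canalicular membrane (chr2:69238282-69342616, minus strand), had a smaller fold than Slc10a1. Among Xist-low libraries it spanned 347 to 641 CPM on the control diet (median 427), and 246 to 303 CPM on FFD, with a median of 273. These did not overlap, and the fall was 0.69 on the log2 scale (edgeR with Benjamini-Hochberg adjustment, adjusted p = 0.00173). Within the Xist-high set the ranges of 329 to 600 and 315 to 501 CPM overlapped, with a log2 fold change of -0.15 (95% interval -0.44 to 0.14). The difference of -0.55 between the sets did not pass the test (adjusted p = 0.101). Abcb11 shares up to 136 bases of exon with Gm13613 on the other strand in GENCODE M21, and whether the counting used strand is not given in the sources used here.

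The conjugation genes lie at the last step before export. Slc27a5 (chr7:12988346-12998192, minus strand) spanned 778 to 1810 CPM in Xist-low controls, with a median of 978, and 363 to 552 CPM in Xist-low FFD libraries, with a median of 485. The ranges did not overlap, and the fall was 1.2 on the log2 scale with a standard error of 0.19 (edgeR with Benjamini-Hochberg adjustment, adjusted p = 0.000201). For the Xist-high libraries 803 to 1082 CPM on the control diet stood beside 689 to 1046 CPM on FFD, and FFD differed by -0.11 on the log2 scale (adjusted p = 0.565). The difference between the sets was -1.1 (adjusted p = 0.00224). The highest value, 1810 CPM, was control replicate 10, and without it the Xist-low fall was 0.99 and was still called (adjusted p = 1.56e-05). The call over all 24 libraries, -0.61, was lost when any of FFD replicates 7, 8, 10, 11 and 12 (adjusted p = 0.0105 to 0.0113) or control replicate 10 (-0.5) was left out.

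Baat (chr4:49489422-49506557, minus strand) spanned 174 to 400 CPM in Xist-low controls, with a median of 193, and 133 to 157 CPM in Xist-low FFD libraries, with a median of 142. All 6 FFD libraries lay below all controls, and the log2 fold change of -0.63 had an adjusted p of 0.0143 in edgeR, above the threshold. Without control replicate 10, which held the value of 400 CPM, it was -0.39 (adjusted p = 0.000922) and missed the fold threshold. With library totals alone the Xist-low log2 fold change of Baat was -0.13, and over all libraries -0.014. Neither passed the p threshold (edgeR with Benjamini-Hochberg adjustment, adjusted p = 0.409 and 0.924). In the Xist-high libraries the ranges of 142 to 232 and 152 to 182 CPM overlapped, with a log2 fold change of 0.011 (95% interval -0.21 to 0.24). The difference between the sets, -0.65, did not pass the test (adjusted p = 0.0652).

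**Figure D2:**
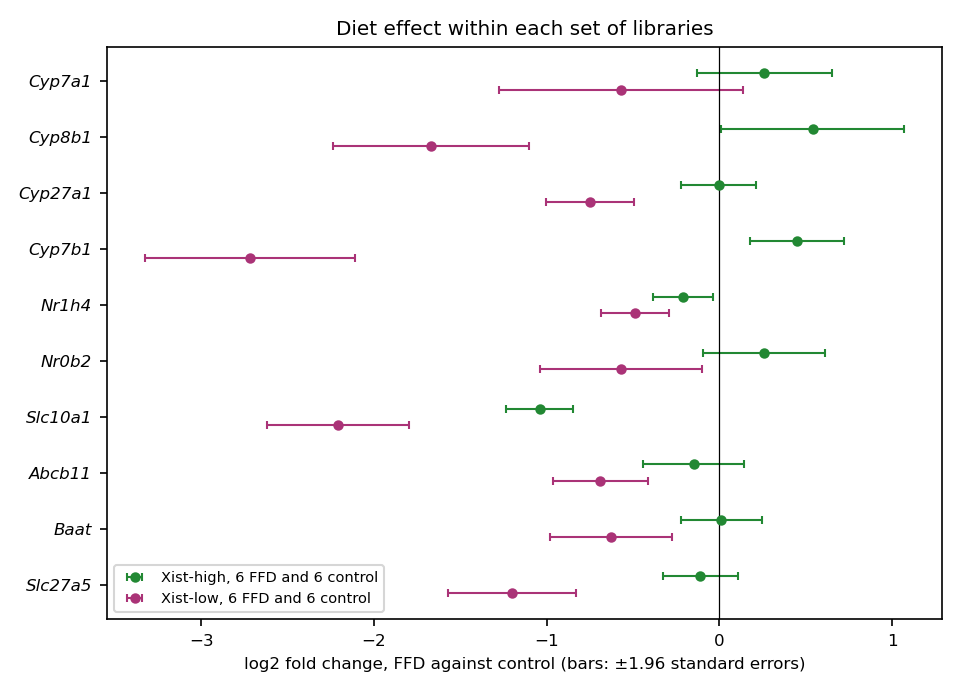
The log2 fold change of FFD against control for each of the 10 genes, fitted by edgeR within the Xist-high (green) and the Xist-low (purple) libraries, 6 FFD and 6 control in each; points are estimates and bars 95% intervals. Among the Xist-low libraries all 10 points lie below 0, from -2.72 for Cyp7b1 to -0.49 for Nr1h4, and in the Xist-high libraries Slc10a1 stands apart at -1.04.

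Ratios between genes of the same library do not depend on the scaling between libraries, and 4 were compared by a two-sided permutation test of the mean log2 ratio of counts. Export against uptake, Abcb11 to Slc10a1, was higher on FFD by 1.22 on the log2 scale, with 1.27 ± 0.6 (SD, n = 12) on FFD and 0.052 ± 0.39 (SD, n = 12) on the control diet (permutation p = 2e-05, adjusted p = 8e-05, and 2e-05 is the smallest that 100000 resamples give two-sided). It was higher by 0.9 within the Xist-high and by 1.53 within the Xist-low libraries, with every FFD library above every control in each set (exact permutation p = 0.00216 for both, adjusted p = 0.00866 and 0.00289, and 0.00216 is the smallest that 6 against 6 allow). Thus the uptake gene was lower on FFD relative to the export gene in both sets.

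Ligase against conjugation enzyme, Slc27a5 to Baat, was lower on FFD by 0.37 (permutation p = 0.0121, adjusted p = 0.0242). Within the Xist-low libraries the difference was -0.59 without overlap (exact permutation p = 0.00216, adjusted p = 0.00289), and within the Xist-high libraries -0.15 (adjusted p = 0.41 by the exact permutation test). Classical against alternative route, Cyp7a1 to Cyp7b1, differed by 1.01 over all libraries (permutation p = 0.237, adjusted p = 0.316). Within the Xist-low set it moved from -1.44 ± 0.73 (SD, n = 6) on the control diet to 0.73 ± 0.8 (SD, n = 6) on FFD, a difference of 2.17 (exact permutation p = 0.00216, adjusted p = 0.00289), and in the Xist-high libraries it differed by -0.15 (adjusted p = 0.491 by the exact permutation test). Cyp8b1 to Cyp7a1 was lower by 1.26 in the Xist-low libraries (exact permutation p and adjusted p = 0.0368), with overlap between the diets, and differed by 0.28 in the Xist-high libraries (adjusted p = 0.41 by the exact permutation test).

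**Figure D3:**
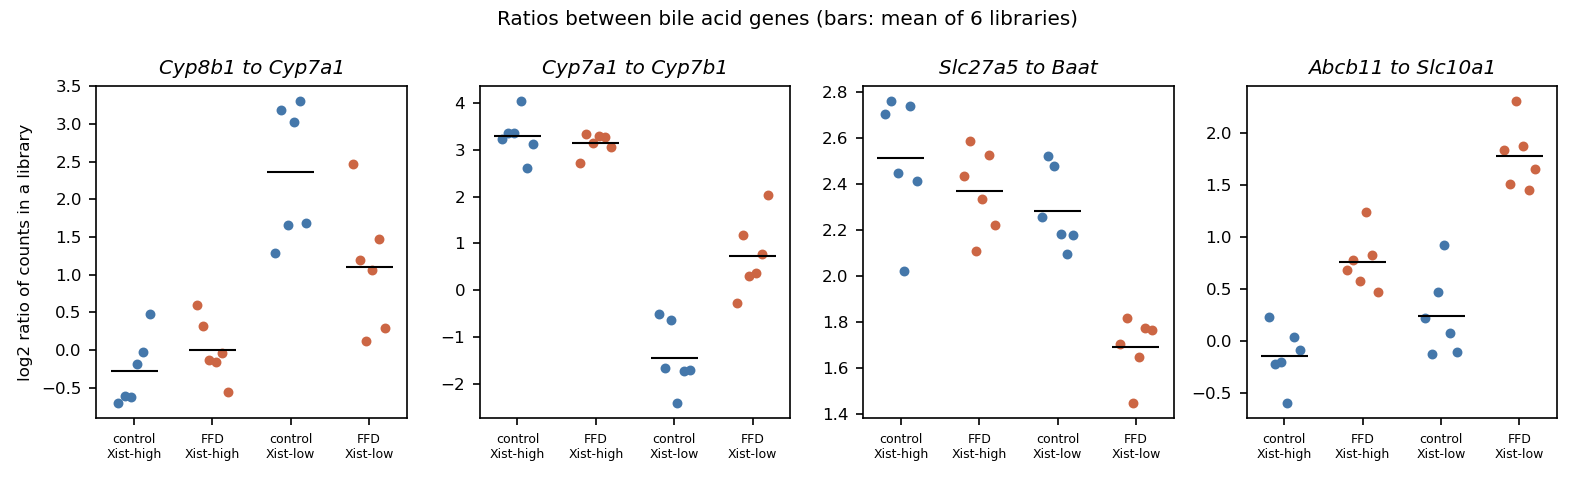
The log2 ratio of the counts of paired genes in each library, for control (blue) and FFD (orange) in the Xist-high and Xist-low libraries; points are libraries and bars the mean of 6. Abcb11 to Slc10a1 is higher on FFD in both sets, by 0.9 and 1.53, and Cyp7a1 to Cyp7b1 is higher on FFD by 2.17 in the Xist-low set and differs by -0.15 in the Xist-high set.

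Of 47 other genes of the pathway, 45 were tested. Over all libraries 3 were higher and 7 lower on FFD, beside 13.2% and 4.99% of all genes tested. The enzymes that changed were Ephx1 (a rise of 1.14 on the log2 scale), the microsomal epoxide hydrolase, Cyp39a1 (-1.13), an oxysterol hydroxylase, and Akr1c14 (-0.57), a hydroxysteroid dehydrogenase. Among regulators the deacetylase gene Sirt1 (-0.57) and the coactivator gene Ppargc1a (-0.8) were lower. Among transporters, the basolateral exporter gene Abcc3 (0.83) and the sterol exporter gene Abcg5 (0.74) were higher, and Slco1a1 (-4.94), Slco1b2 (-0.69), both organic anion uptake carriers, and Tmem30a (-0.69), a subunit of lipid flippases, were lower. In the Xist-low libraries 5 were higher and 16 lower, beside 14.4% and 7.99% of all genes. In the Xist-high libraries 3 were higher and 2 lower, beside 2.9% and 0.882%. Of the enzymes called over all libraries, Ephx1 was called higher in both sets. Cyp39a1 was called in the Xist-high libraries alone (-1.42, against -0.48 in the Xist-low libraries). Akr1c14 was called in the Xist-low libraries alone (-0.98, against -0.16 in the Xist-high libraries).

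The uptake carrier Slco1a1, like Cyp7b1, had a low level in Xist-high controls and a high one in Xist-low controls. It spanned 292 to 426 CPM in Xist-low controls and 1.46 to 29.3 CPM in Xist-low FFD libraries, and fell by 5.46 on the log2 scale (edgeR with Benjamini-Hochberg adjustment, adjusted p = 1.23e-05). Among Xist-high libraries it was at 0.508 to 13.8 CPM on the control diet, and FFD gave 0.251 to 20.2 CPM. The difference between the sets was -5.24 (adjusted p = 0.00731). The sodium-driven carrier of the ileum, Slc10a2, a relative of Slc10a1 that cholangiocytes express as well, was higher on FFD in the Xist-high libraries by 1.66 and lower in the Xist-low libraries by 0.79, and the difference between the sets was -2.45 (adjusted p = 0.000613). Its level was 3.76 to 38.3 CPM over all 24 libraries. Fgf15, the ileal hormone that lowers Cyp7a1, had 0 counts in every library, and Fabp6 had at most 1.

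**Figure D4:**
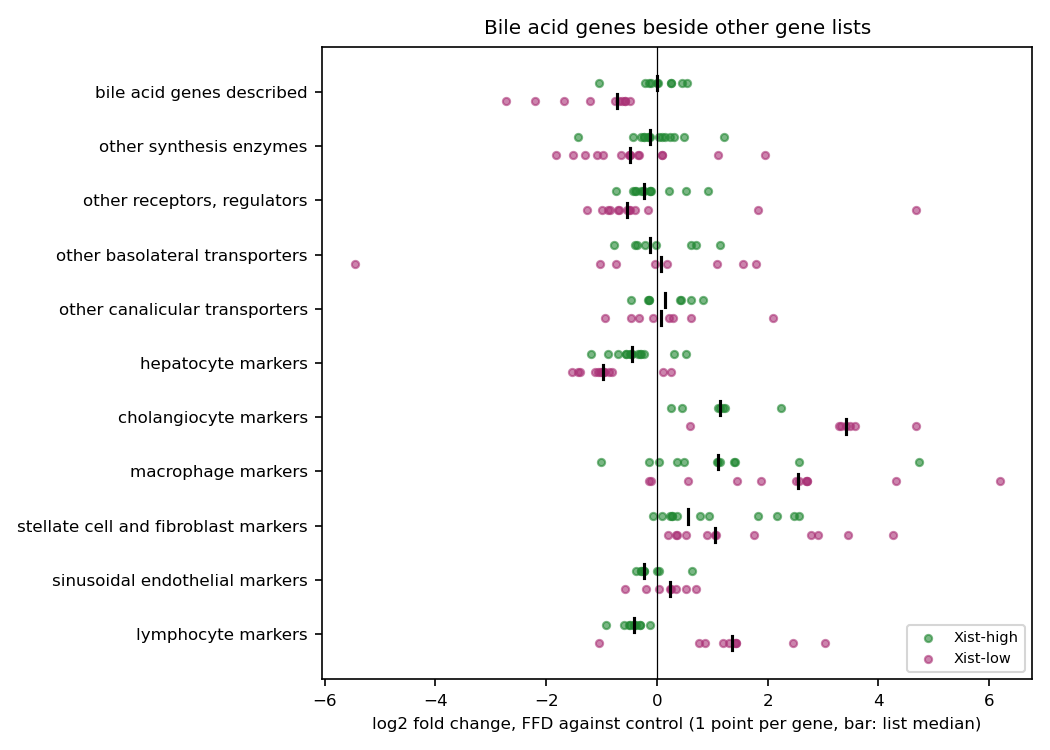
The log2 fold change of FFD against control for the genes tested of the bile acid and cell type lists, within the Xist-high (green) and Xist-low (purple) libraries; 1 point is 1 gene and the black bar is the list's median. The 10 bile acid genes have medians of 0.0035 and -0.72, and the hepatocyte markers of -0.46 and -0.98.

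The summed level of the 10 genes can be set beside that of the hepatocyte markers. It spanned 1359 to 1997 CPM in Xist-low FFD libraries and 2918 to 4729 CPM in Xist-low controls, with no overlap. Among the Xist-high libraries it spanned 2232 to 2901 CPM on FFD and 2539 to 3092 CPM on the control diet, which overlapped. Slc27a5 was the largest part of the sum, with means of 1089 CPM in Xist-low controls and 468 CPM in Xist-low FFD libraries. In control replicate 10 it was at 1810 CPM. Among the Xist-low libraries the median log2 fold change of the 10 genes was -0.72, smaller in size than the -0.98 of the hepatocyte markers, and in the Xist-high libraries 0.0035, against -0.46. Of the 10 genes, Cyp7b1, Slc10a1, Cyp8b1 and Slc27a5 had Xist-low values below the hepatocyte marker median, and in the Xist-high libraries Slc10a1 alone did so.

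The genes that varied most like each bile acid gene between libraries of the same diet and set were also listed, by Pearson's r of log2(CPM + 1) over the 24 libraries after subtraction of the mean of each diet and set. The nearest was F5 for Slc10a1 (r = 0.92), Kif13b for Abcb11 (0.87), Cox16 for Baat (0.96), Acy1 for Slc27a5 (0.93) and Slc29a1 for Cyp27a1 (0.87). It was Prkd3 for Cyp7a1 (0.8), Cog4 for Cyp8b1 (0.8), Slc39a1 for Cyp7b1 (0.79), Ak4 for Nr1h4 (0.8) and Ormdl3 for Nr0b2 (0.82). The points of such a pair share library, depth and scaling, and the highest of 13928 genes is a selected value. Control replicate 10, which held the highest values of Baat and Slc27a5, was among the 24 libraries. Its part in these correlations was not tested.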

How the data were processed

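Whole-liver RNA was sequenced in 12 FFD and 12 control poly(A) libraries. The table the authors deposited holds raw counts as whole numbers for each Ensembl gene. Per the submitters' processing notes in the labels, bcl2fastq and STAR 2.7.3a with mm10 were used. The study's supplement names a stranded mRNA kit (TruSeq), the exon quantification pipeline and PISCES, with a human reference; for the mouse table the counting program, its annotation and its use of strand are not given in the sources used here. Symbols, coordinates and exon lengths came from GENCODE M21 (GRCm38, the build of mm10), which matched 51745 of 56205 IDs, and the other 4460 held 0.0723% of the counts. Libraries held 14468418 to 22112552 counts, and no pair within a diet agreed within sampling noise (lowest chi-square per degree of freedom 10.1).

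From the deposited counts, the 17913 genes detected (1 count or more) in 12 or more libraries were tested with edgeR 4.0.16 in R 4.3.3 (TMM, quasi-likelihood test, diet as the only term, Benjamini-Hochberg over all genes tested). Calls needed a log2 fold change beyond 0.5 in either direction and an adjusted p not above 0.01. The standard error is the size of the estimate over the square root of F, and 95% intervals assume a normal distribution. The same test was run within the Xist-high and Xist-low libraries (above or below 1000 counts of Xist) and for the diet by set interaction. These sets are not conditions and were known from earlier results. Ratios used counts plus 0.5 and permutation tests of 100000 resamples, exact for 6 against 6. Scripts were tested on simulated data.

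Alternatives were DESeq2 1.42.0, limma-voom of limma 3.58.1, library totals or DESeq2 size factors, other filters and thresholds, the replicate block, the set as a covariate, and each library left out. Fits within a set with library totals alone or without control replicate 10, and fits without control replicate 10 and FFD replicate 9, were added after seeing the data. The design text gives as many mice per diet and sex as there are libraries per diet and set. The labels do not tie each library to an animal, so p-values measure the spread between these libraries. The members, gene lists and tests were chosen with earlier results of these data known. All 10 members were named, as were the genes of the other bile acid lists that were called over all 24 libraries, and for each member the genes most like it among those with a mean of at least 10 counts, of which the first is given. Slc10a2, Fgf15 and Fabp6 were named for their place in bile acid transport. The lists also held markers of hepatocytes, cholangiocytes, macrophages, stellate cells and fibroblasts, sinusoidal endothelial cells and lymphocytes, and clock output genes. The values of another marker gene are not reported here.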

Additional observations from a re-analysis of the deposited data

Results flagged for a closer look

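The diet effect differed between the Xist-low and Xist-high libraries for 5 of the 10 bile acid genes, by edgeR's test of the interaction with Benjamini-Hochberg adjustment. The difference in log2 fold change, Xist-low minus Xist-high, was -3.18 for Cyp7b1, -2.21 for Cyp8b1, -1.17 for Slc10a1, -1.1 for Slc27a5 and -0.75 for Cyp27a1. A difference below 0 was called for 1.47% of all genes tested. With library totals alone, the differences of Slc10a1 and Cyp27a1 were not called. The sets match the sexes by Xist and Ddx3y, but they are not labelled conditions. What else sets them apart was not tested.

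In 4 of 40 groups of 6 libraries, a single library lay far from the others of its diet and set, where chance flags about 1 in 20 groups. Nr1h4 was at 160 CPM in control replicate 12, Baat at 232 CPM in control replicate 4 and at 400 CPM in control replicate 10, and Slc27a5 at 1810 CPM in control replicate 10. Control replicate 10 had the lowest depth and the lowest TMM factor, 0.679, and the part of that in its values was not tested.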

How the results depend on the processing

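Slc10a1 kept its direction and its call in each of its 39 alternatives, fits with a library left out and fits within a set included. With library totals alone, 3827 genes were higher and 226 lower (2372 and 894 with TMM). Then 1 bile acid gene was lower, and 7 other pathway genes were higher and 1 lower. Cyp7a1 was at 0.2, Nr0b2 at 0.071, Cyp7b1 at -1.77 and Slc27a5 at -0.32, none of them called, and the Nr1h4 interaction was 0.054. For Slc10a1 with Abcb11, r on FFD was -0.21 with library totals alone (0.19 with TMM). Their rho in controls was 0.85 (permutation adjusted p = 0.0149), against 0.51 with TMM (permutation adjusted p = 0.278). With at least 10 counts in every library 1226 genes were higher and Cyp7a1 was at 0.017. In the Xist-high libraries 520 genes were higher and 158 lower, 1 bile acid gene and 2 other pathway genes were lower, and log2 fold changes were 0.26 for Cyp7a1, 0.54 for Cyp8b1, 0.45 for Cyp7b1, 0.26 for Nr0b2, 0.011 for Baat and -0.11 for Slc27a5. With library totals alone these were 0.37, 0.64, 0.56, 0.36, 0.12 and -0.0026, and Cyp27a1 was at 0.1. In the Xist-low libraries 1431 genes, 6 bile acid genes and 16 other pathway genes were lower and 5 other pathway genes higher, with -1.67 for Cyp8b1, -0.75 for Cyp27a1 and -0.69 for Abcb11. Without control replicate 10 these were -1.56, -0.67 and -0.71, and Nr1h4 was called at -0.5; with library totals alone Cyp8b1 was at -1.22. The ratio differences were 0.28 for Cyp8b1 to Cyp7a1, -0.15 for Cyp7a1 to Cyp7b1 and -0.15 for Slc27a5 to Baat in the Xist-high libraries, and -1.26 and 2.17 for the first pair of ratios in the Xist-low libraries. Cyp7b1 was not called by limma-voom (-1.13), with the set as a covariate (-1.18) or with the replicate block (-1.08). The block gave 5 other pathway genes higher and changed no other bile acid gene's call, and 6 of 24 libraries correlated best with their own number on the other diet. Same-numbered libraries share only a number in the labels, and their deviations from the group means correlated at -0.0946 for number 9 and at 0.158 to 0.577 for the others. The covariate gave 5 other pathway genes higher and 11 lower. At an adjusted p of at most 0.05 with no fold threshold, 3709 genes were higher and 3388 lower, 8 bile acid genes were lower, and 6 other pathway genes were higher and 19 lower. With a log2 fold change over 1, 216 genes were lower, and 1 other pathway gene was higher and 2 lower. Leaving out 1 library gave -0.13 to 0.11 for Cyp7a1 and -0.69 to -0.5 for Slc27a5, and leaving out control replicate 10 and FFD replicate 9 gave -0.44 for Slc27a5, not called. Without subtraction of set means, r of Cyp7a1 with Cyp8b1 in controls was -0.34 (0.26 with it) and r of Slc10a1 with Abcb11 on FFD was 0.84 (permutation adjusted p = 0.0109). Beyond the construction of these settings, the cause of the changes was not tested. Depth did not limit the bile acid genes, with at least 183 counts in every library, but a whole liver does not resolve cell types.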

Other observations

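Of 11 clock output genes, 1 was higher and 2 were lower on FFD over all 24 libraries, beside 13.2% and 4.99% of all genes tested. Npas2 was higher by 2.22 on the log2 scale, from 0 to 9 counts per control library and 3 to 29 per FFD library, so that this fold depends on the prior count, and Ciart and Nr1d2 were lower by 1.16 and 0.53 (edgeR with Benjamini-Hochberg adjustment, adjusted p = 0.000508, 0.000629 and 0.00106). Several bile acid genes follow the time of day in mouse liver, and the labels give no time of collection.

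Of 8 sinusoidal endothelial markers 1 was higher and 0 lower over all 24 libraries, with 1 above and 2 below 0 at an unadjusted p under 0.05, and DESeq2 and limma-voom also called 0 lower. Of 10 lymphocyte markers edgeR, DESeq2 and limma-voom each called 0, and edgeR had 1 above and 1 below 0 at an unadjusted p under 0.05. In the Xist-low libraries 4 of the 10 lymphocyte markers were higher on FFD. Of 7 cholangiocyte markers, 5 were higher in the Xist-low libraries and 0 in the Xist-high libraries, where 5 had an unadjusted p under 0.05 above 0.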
